A study of Homo sapiens with 6 samples.

Results

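Integrins, laminins and nidogens were described in SUM149 cells, a human line established from an inflammatory breast cancer, transfected with siRNA against TIG1 (current symbol RARRES1). The set was a list of 36 gene symbols, and each gene was read from the array probe set of highest mean among those annotated to that symbol alone. Such a probe set existed for 35 of the 36 genes, out of 19775 genes measured in all; ITGB6 had none and has no value here. By role the 35 were 17 integrin alpha chains, 7 integrin beta chains, 9 laminin chains and 2 nidogens.

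The siTIG1 group (3 arrays) came from cells transfected with an siRNA pool of the ON-TARGET Plus line against TIG1. The siControl group (3 arrays) came from cells transfected with a non-targeting pool of the siGENOME line. Both pools were used at 200 nmol/L with an oligofectamine reagent, so the groups differed in siRNA target and in product line, and all cells were 1 line. The sources used here give no time between transfection and harvest. They do not say that replicates came from separate cultures, and each p-value then reflects only the spread among these arrays, which may be technical. Because RNA was taken from whole cultures, a change in RNA per cell and a change in the mix of cells cannot be told apart.

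Integrins are receptors made of 1 alpha and 1 beta chain that span the cell membrane and tie the extracellular matrix to the cytoskeleton. Laminins are trimers of an alpha, a beta and a gamma chain that build the basement membrane under epithelia, and nidogens bridge the laminin and collagen IV networks. Laminin-332 is a laminin of the epidermal and mammary basement membrane, and its receptor alpha6-beta4 anchors basal epithelial cells through hemidesmosomes. LAMB3 encodes the beta chain of laminin-332. Its other two chains were not analysed here.

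The laminin chain LAMB3 and the integrin chains ITGA6 and ITGB5 showed the largest falls in the siTIG1 group, each by about 1 unit or more on the log2 scale, and ITGAV, the alpha chain that pairs with ITGB5, rose. The 250 bases before the most upstream start that RefSeq lists for each are printed 5′ to 3′, with capitals for the GC box GGGCGG on either strand. RefSeq lists 3 starts each for LAMB3 and ITGB5 and 2 each for ITGA6 and ITGAV. Which of these starts the cells used was not measured. Coordinates are those of build GRCh38.p14 from RefSeq, in which LAMB3 lies on the minus strand at chr1:209652426-209652675, ITGA6 on the plus strand at chr2:172427086-172427335, ITGB5 on the minus strand at chr3:124901419-124901668 and ITGAV on the plus strand at chr2:186589806-186590055.
LAMB3: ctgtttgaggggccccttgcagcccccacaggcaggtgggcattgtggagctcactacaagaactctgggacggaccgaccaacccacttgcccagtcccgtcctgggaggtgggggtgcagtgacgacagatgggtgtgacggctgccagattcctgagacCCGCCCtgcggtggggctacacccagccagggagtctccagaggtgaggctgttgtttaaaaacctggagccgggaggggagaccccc
ITGA6: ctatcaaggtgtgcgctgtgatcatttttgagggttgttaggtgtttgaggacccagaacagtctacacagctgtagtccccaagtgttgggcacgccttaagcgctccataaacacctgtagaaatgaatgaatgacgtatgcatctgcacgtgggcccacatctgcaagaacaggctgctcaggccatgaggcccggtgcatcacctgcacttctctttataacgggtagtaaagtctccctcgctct
ITGB5: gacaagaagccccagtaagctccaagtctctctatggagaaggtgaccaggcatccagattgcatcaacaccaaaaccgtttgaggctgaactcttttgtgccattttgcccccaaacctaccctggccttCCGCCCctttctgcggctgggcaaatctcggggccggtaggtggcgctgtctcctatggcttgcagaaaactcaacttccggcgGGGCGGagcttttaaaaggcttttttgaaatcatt
ITGAV: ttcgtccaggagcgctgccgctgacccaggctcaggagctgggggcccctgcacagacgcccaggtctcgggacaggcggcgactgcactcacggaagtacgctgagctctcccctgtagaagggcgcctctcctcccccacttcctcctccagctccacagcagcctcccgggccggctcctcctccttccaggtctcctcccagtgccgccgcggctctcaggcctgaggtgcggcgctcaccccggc

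The RefSeq promoter table held 26 of the 36 genes, with 33 starts, and each window was searched for the AP-1 motif TGANTCA and the GC box GGGCGG on both strands. AP-1 is the dimer of FOS and JUN proteins, and its 1 match overlapped no GC box. The motif was found in 1 of the 33 windows (3.03%), against 6.57% of all 35116 windows of that length. The match lay before the most downstream of the 3 LAMB3 starts, 67 bases upstream of it, and is shown in capitals within its 30 bases at chr1:209651423-209651452 on the minus strand.
LAMB3 AP-1 match: gtcagccactcTGACTCAttcactttgggc
The printed windows of ITGA6 and ITGAV hold no match to either motif. ITGA6 has another start further downstream, and the window before it, not printed, holds 3 GC boxes. The GC box was found in 18 of the 33 windows (54.5%), against 42.6% of all windows. These counts describe letters in fixed windows and are not evidence of binding.

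One control array stood apart from the rest. Over all 54675 probe sets the siTIG1 arrays correlated with each other at 0.998 to 0.999 and siControl replicates 1 and 2 at 0.998. By contrast, siControl replicate 3 correlated with the other controls at 0.985 and with the siTIG1 arrays at 0.982. The siTIG1 arrays correlated with siControl replicates 1 and 2 at 0.992 to 0.993, closer than siControl replicate 3 did. Among the 35 genes that array held the highest of the 6 values for 17 and the lowest for 8. The difference between 3' and 5' control probe sets grows as RNA degrades. For ACTB it was 2.14 to 2.34 on the siTIG1 arrays and 2.62 to 3.21 on the siControl arrays, highest on siControl replicate 3. For GAPDH it was 0.46 to 0.47 on the siTIG1 arrays. On siControl replicates 1, 2 and 3 the GAPDH difference was 0.48, 0.46 and 0.57. The part of RNA quality in the results was not tested. TIG1 itself had 3 probe sets. The first read 10.72, 10.03 and 9.96 in siTIG1 and 11.04, 10.92 and 12.58 in siControl. The second read 11.72, 10.95 and 10.95 in siTIG1 and 11.89, 11.88 and 13.55 in siControl. The third read 12.69, 11.95 and 11.87 in siTIG1 and 12.65, 12.61 and 13.74 in siControl. siTIG1 replicate 1 thus lay close to siControl replicates 1 and 2, and on the third probe set above both. The differences were -1.28, -1.24 and -0.83, and none passed in the fit of all probe sets (limma adjusted p = 0.19, 0.22 and 0.26). Without siControl replicate 3 they were -0.75, -0.68 and -0.46, and the first and second passed (limma adjusted p = 0.021, 0.038 and 0.15). Of the epithelial markers, 6 of 6 measured lay above the median gene level of 8.69, with array averages of 13.40 to 13.45 in siTIG1 and 13.02 to 13.19 in siControl, and KRT19, a keratin of simple epithelia, rose by 1.00 (limma adjusted p = 0.016). The leukocyte markers averaged 7.44 to 7.50 in siTIG1 and 7.24 to 7.59 in siControl, and none of 5 passed the test. Platelet markers (8.34 to 8.45 against 8.32 to 9.05), fibroblast markers (7.56 to 7.71 against 7.61 to 7.76) and endothelial markers (7.86 to 7.90 against 7.79 to 7.87) likewise had none past it. The part of these markers in the results was not tested. The deposited values carry no detection call, so a low value is not shown to lie above background.

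Of the 35 genes, 3 rose and 4 fell at a limma adjusted p under 0.05 over all genes, where 7.29% of all genes passed (3.16% higher and 4.14% lower). The rises were ITGAV, ITGA4 and ITGA2B, and the falls LAMB3, ITGA6, ITGB5 and LAMB1. The median difference was -0.07 over the 35 genes and 0.02 over all genes, and the median size of a difference was 0.16 against 0.10. The groups did not overlap for 15 of the 35 (42.9%), against 31.8% of all genes. The set was chosen with earlier results of these data known, so its shares are not independent of the data. Without siControl replicate 3, 6 of the 35 rose and 9 fell, where 27.1% of all genes passed (12.2% higher and 14.8% lower), and the median difference of the 35 was -0.01. When 1 of the other 5 arrays was left out instead, 0 to 2 of the 35 rose and 3 to 4 fell. Over all 19775 genes 101 to 250 rose and 116 to 338 fell in those fits.

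**Figure D1:**
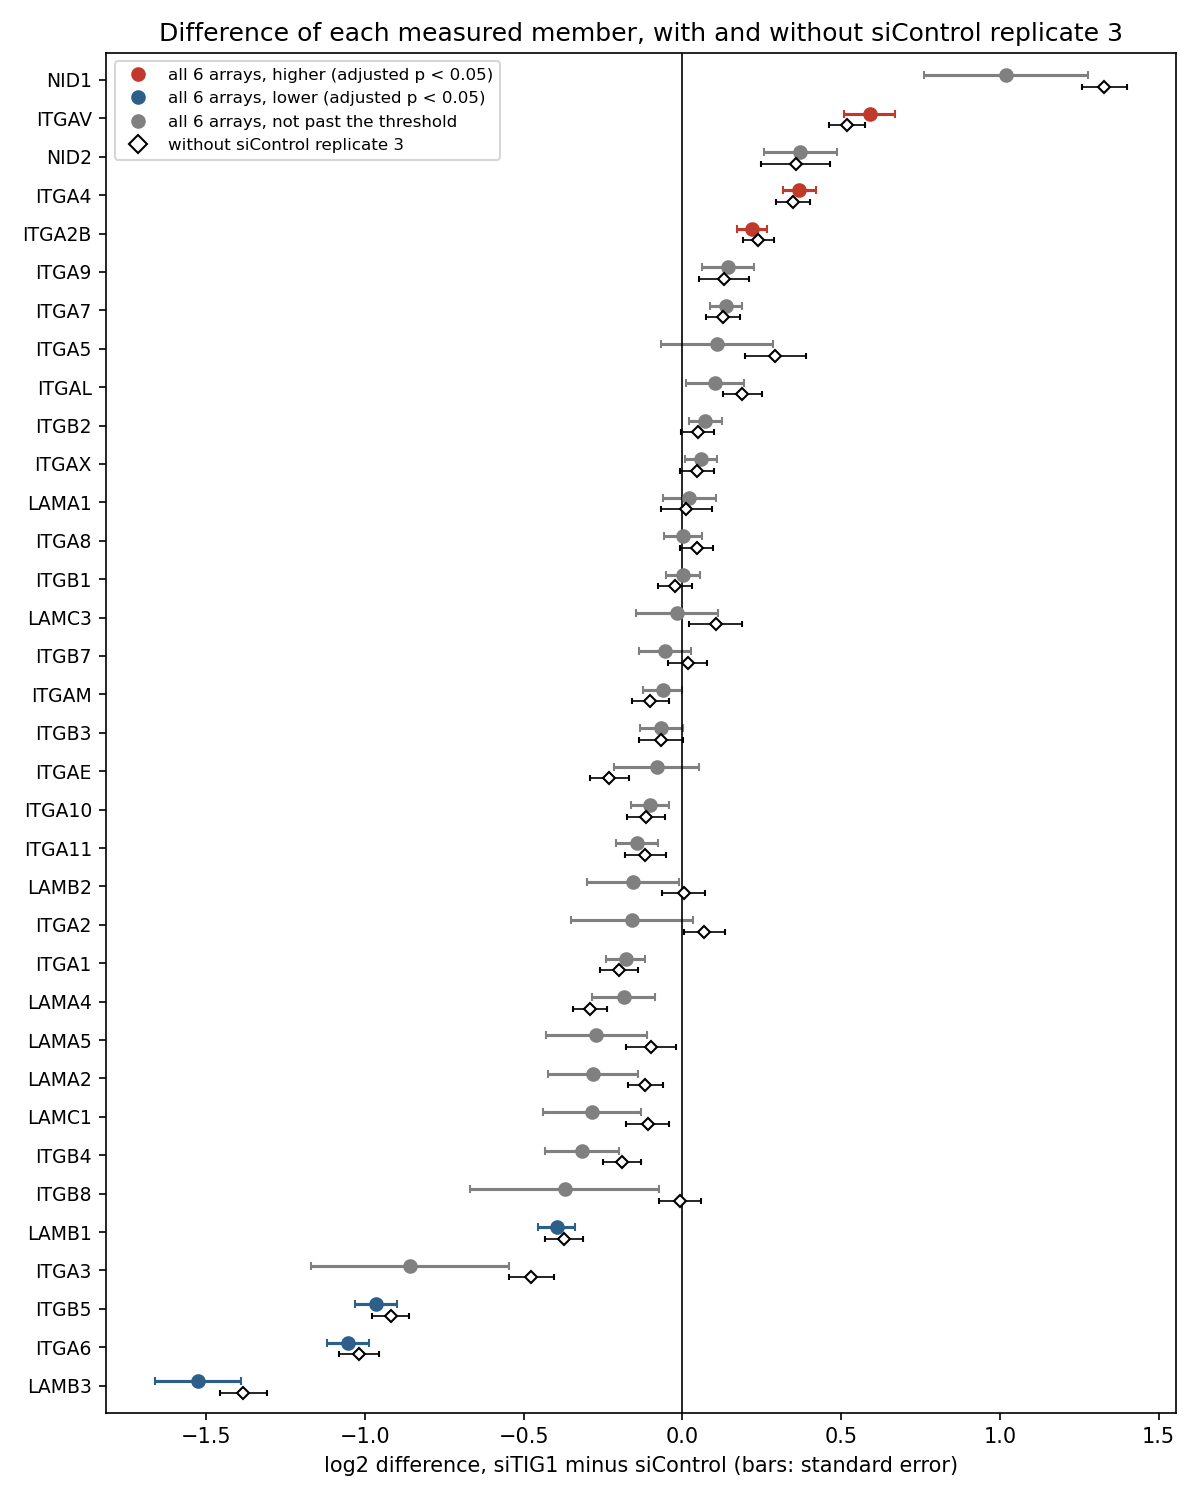
Log2 difference of each of the 35 measured genes, siTIG1 minus siControl, with its standard error (horizontal axis). Filled circles use all 6 arrays and open diamonds leave out siControl replicate 3. LAMB3, ITGA6 and ITGB5 lie at -0.92 or lower both ways, whereas ITGA3 lies at -0.86 and -0.48 and ITGB8 at -0.37 and -0.01.

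LAMB3, the beta chain of laminin-332, fell 2.88-fold, the largest difference in the set. Its log2 signal was 11.79, 12.02 and 12.003 on the siTIG1 arrays, against 13.34, 13.30 and 13.75 on the siControl arrays. The groups lay more than 1 unit apart, and siControl replicate 3 was the highest control. The means were 11.94 ± 0.13 in siTIG1 and 13.46 ± 0.25 in siControl (SD, n = 3 each), a difference of -1.53 ± 0.14 (SE, limma adjusted p = 0.0041). It was -1.38 without siControl replicate 3. The single LAMB3 probe set could not be set against another.

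ITGA6, the alpha chain that joins beta4 or beta1 to bind laminins, fell 2.08-fold. It read 11.41, 11.57 and 11.55 in siTIG1 and 12.50, 12.55 and 12.64 in siControl. Neither group held an array that stood apart. The difference was -1.05 ± 0.07 (SE, limma adjusted p = 0.0020), and a second probe set gave -1.03 ± 0.10 (SE), with a limma adjusted p of 0.0053 in the fit of all probe sets.

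ITGB4, the partner of ITGA6 in the laminin-332 receptor, did not pass the test, and its probe sets disagreed. On the probe set of highest mean it read 7.96, 7.94 and 8.05 in siTIG1 and 8.11, 8.24 and 8.56 in siControl, a difference of -0.32 ± 0.12 (SE, limma adjusted p = 0.18). Of its 5 probe sets 2 were lower and 3 higher in siTIG1, from -0.32 to 0.17, and none passed. The groups did not overlap on 3 of them, 1 lower and 2 higher in siTIG1. All 5 had group means between 6.37 and 8.30, under the median gene level. The probe set with the next highest mean read 8.01, 8.07 and 8.07 in siTIG1 against 7.89, 7.94 and 7.87 in siControl, the opposite order. Without siControl replicate 3 the highest probe set was at -0.19 (limma adjusted p = 0.045 over all genes and 0.063 over all probe sets).

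Differences between chains were also taken within each array. The LAMB3 minus ITGA6 log2 signal was 0.37, 0.45 and 0.45 in siTIG1, against 0.83, 0.75 and 1.11 in siControl, a shift of -0.47. The ITGA6 minus ITGB4 signal was 3.45, 3.63 and 3.50 in siTIG1, against 4.39, 4.32 and 4.08 in siControl, a shift of -0.74. Neither pair's groups overlapped, and the exact 2-sided permutation p was 0.1 for each, the smallest that 3 against 3 arrays allow, so neither shift could pass 0.05. The second pair rests on 1 ITGB4 probe set, and other ITGB4 probe sets had the opposite sign. Levels of different probe sets cannot be compared, so only these shifts between groups carry meaning. LAMB3, ITGA6 and ITGB4 on its highest probe set each gave the same exact permutation p of 0.1.

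**Figure D2:**
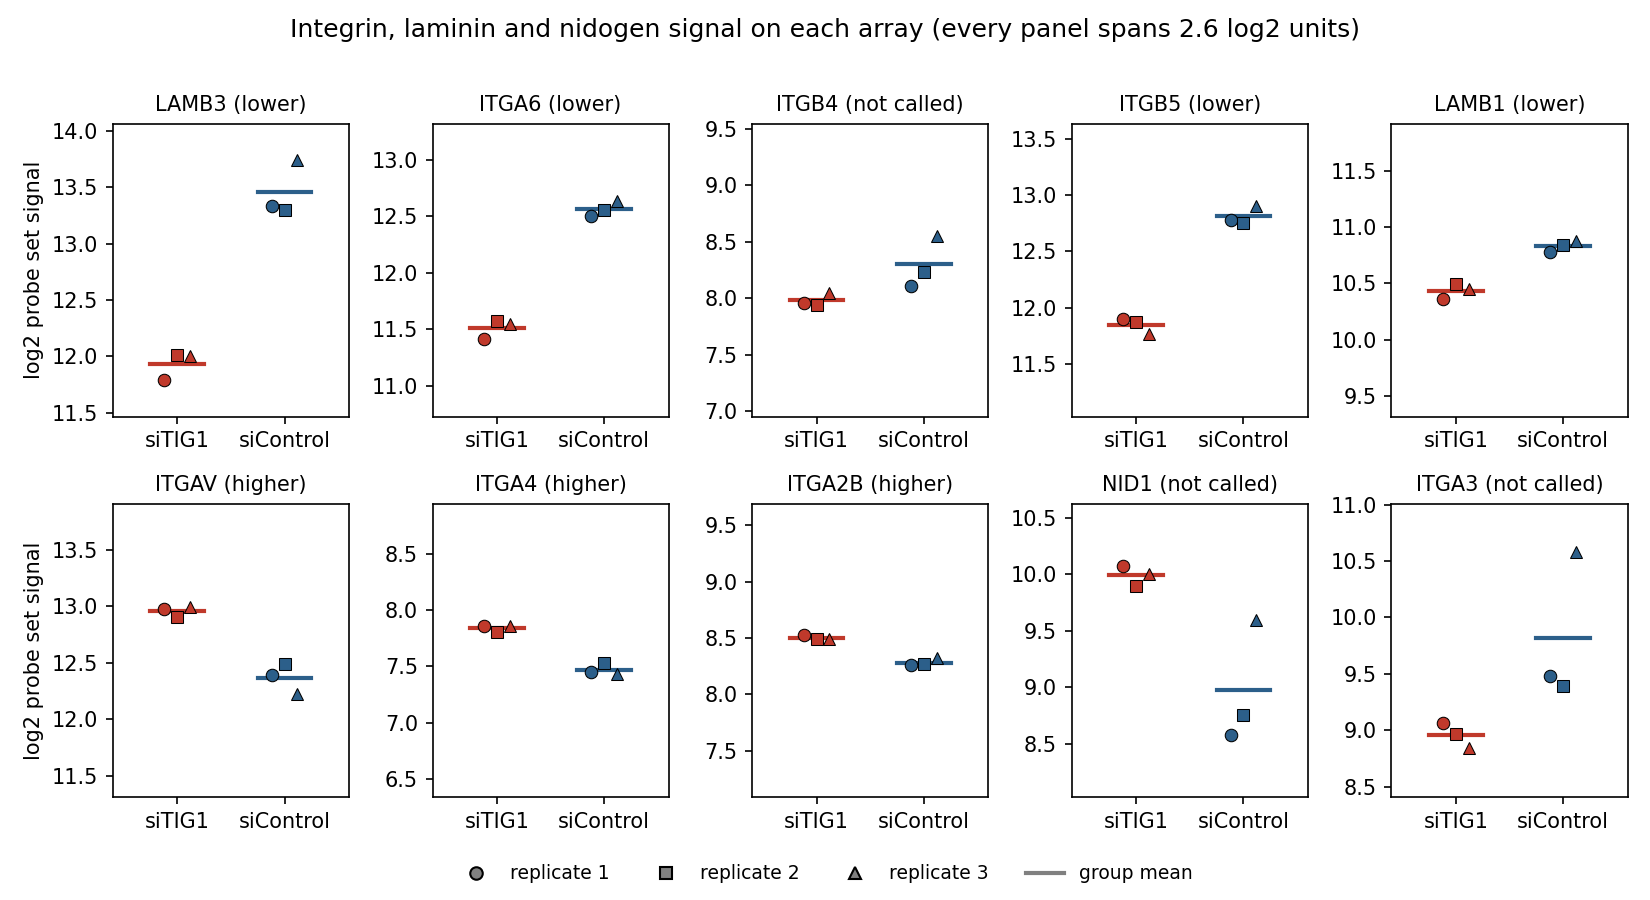
Log2 probe set signal on each array (vertical axis) for 10 genes, siTIG1 left of siControl, with symbols for replicate numbers and a line at the group mean. All panels cover a span of the same height. LAMB3, ITGA6 and ITGB5 show groups about 1 unit or more apart, and siControl replicate 3 sits above the other controls for NID1 and ITGA3.

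The other integrins that bind laminin did not pass. ITGA3, the alpha chain of alpha3-beta1, a second receptor for laminin-332, read 9.07, 8.97 and 8.84 in siTIG1 and 9.48, 9.39 and 10.58 in siControl. The groups did not overlap, but siControl replicate 3 lay 1.14 above the other controls. The difference was -0.86 ± 0.31 (SE, limma adjusted p = 0.18), and without that array it was -0.48 ± 0.07 (SE, limma adjusted p = 0.00099). ITGA7, a laminin receptor chain of muscle, was at 0.14 ± 0.05 (SE, limma adjusted p = 0.19).

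ITGB1, the beta chain shared by most matrix-binding alpha chains, ITGA6 and ITGA3 among them, showed little difference. It read 14.40, 14.42 and 14.48 in siTIG1 and 14.43, 14.48 and 14.38 in siControl, with overlapping groups. The difference was 0.0013, with a 95% interval from -0.13 to 0.13 (limma adjusted p = 0.99), and its 7 probe sets lay between -0.09 and 0.0013. The ITGA6 minus ITGB1 signal shifted by -1.06 between groups (exact permutation p = 0.1).

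The chains of the vitronectin receptor alphav-beta5 moved in opposite directions. ITGB5, its beta chain, read 11.90, 11.88 and 11.77 in siTIG1 and 12.78, 12.75 and 12.90 in siControl, with close values inside each group. It fell 1.95-fold, by 0.97 ± 0.07 on the log2 scale (SE, limma adjusted p = 0.0023). All 4 of its probe sets were lower, from -0.97 to -0.25, and 2 of them passed; their average was at -0.55 (limma adjusted p = 0.0053). ITGAV, the alphav chain that also pairs with beta1, beta3, beta6 and beta8, read 12.97, 12.904 and 12.997 in siTIG1 and 12.39, 12.49 and 12.22 in siControl. It rose 1.504-fold, a difference of 0.59 ± 0.08 (SE, limma adjusted p = 0.012). The ITGAV minus ITGB5 signal shifted by 1.55 (exact permutation p = 0.1). ITGB5 passed in each of the 6 fits that left out an array, with a highest limma adjusted p of 0.030, whereas the call of ITGAV was lost without siTIG1 replicate 1, 2 or 3 (0.063, 0.067 and 0.078).

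The other measured partners of alphav did not pass with all arrays. ITGB3, the beta chain of platelet and angiogenic integrins, was at -0.07 ± 0.07 (SE), and its 7 probe sets had both signs, from -0.07 to 0.16. ITGB8, a chain that binds latent TGF-beta, read 10.70, 10.62 and 10.49 in siTIG1 and 10.60, 10.62 and 11.70 in siControl. The groups overlapped, and siControl replicate 3 alone stood high. The difference was -0.37 ± 0.30 (SE, limma adjusted p = 0.54), and -0.01 without that array. Its 4 dimmer probe sets were positive with all arrays, from 0.06 to 0.21, and none passed. Without siControl replicate 3 those 4 were at 0.24, 0.27, 0.23 and 0.21. All but the last then passed in the fit of all probe sets (limma adjusted p = 0.016, 0.036, 0.033 and 0.064).

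ITGA4 and ITGA2B, chains best known from blood cells, rose, with signals below the median gene level in both groups. ITGA4, the alpha chain of the VCAM1 and fibronectin receptor of leukocytes, read 7.86, 7.80 and 7.86 in siTIG1 and 7.45, 7.53 and 7.43 in siControl. Its difference was 0.37 ± 0.05 (SE, limma adjusted p = 0.014), 4 of 4 probe sets were higher with groups that did not overlap, and 2 passed. ITGA2B, the platelet fibrinogen receptor chain, read 8.52, 8.49 and 8.49 in siTIG1 and 8.26, 8.27 and 8.32 in siControl. Its difference was 0.22 ± 0.05 (SE, limma adjusted p = 0.047), 1 of its 4 probe sets was negative, none passed in the fit of all probe sets, and their average was at 0.10 (limma adjusted p = 0.24). Leaving out siControl replicate 1, or any siTIG1 array, ended both calls, and leaving out siControl replicate 2 also ended that of ITGA2B. With all arrays, no leukocyte or platelet marker passed the test. Without siControl replicate 3 the platelet markers PPBP (-1.91, limma adjusted p = 1.23e-06) and PF4 (-0.57, limma adjusted p = 0.00023) were lower in siTIG1, and the monocyte marker CD14 was higher (0.80, limma adjusted p = 1.6e-05). The other platelet markers, GP1BA (-0.08) and GP9 (-0.01), did not pass. Nor did the other leukocyte markers PTPRC (-0.08), CD3E (0.08), CSF1R (0.19) and SPI1 (0.06). Of all genes 27.1% passed in that fit. In that fit ITGA4 was at 0.35 and ITGA2B at 0.24.

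The remaining integrins of blood cells lay close to 0. ITGAL, ITGAM, ITGAX and ITGB2, chains of the beta2 integrins of leukocytes, and ITGB7, of lymphocytes, lay between -0.06 and 0.10 with limma adjusted p of 0.49 or more. ITGB2 was read from a probe set whose name marks possible cross-binding, and its other 2 probe sets were at -0.20 and -0.48 with overlapping groups. Without siControl replicate 3 those 2 were at -0.04 and -0.18, and neither passed. ITGAE, the alpha chain of the E-cadherin receptor, read 12.45, 12.55 and 12.47 in siTIG1 and 12.79, 12.65 and 12.27 in siControl, with overlapping groups. Its difference was -0.08 ± 0.13 (SE), and -0.23 without siControl replicate 3, where it passed (limma adjusted p = 0.020).

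None of the 4 collagen-binding alpha chains passed, and all 4 differences were negative on the probe set of highest mean. Of the 2 ITGA2 probe sets 1 was positive (0.03), as was 1 of the 3 ITGA11 probe sets (0.07). ITGA2, the collagen receptor chain of epithelia and platelets, read 10.53, 10.41 and 10.41 in siTIG1 and 10.31, 10.45 and 11.07 in siControl, with overlapping groups. Its difference was -0.16 ± 0.19 (SE), and 0.07 without siControl replicate 3. ITGA1 was at -0.18 ± 0.06 (SE, limma adjusted p = 0.15) with groups that did not overlap, and without siControl replicate 3 it was -0.20 and passed (limma adjusted p = 0.034). ITGA11 was at -0.14 ± 0.07 (SE) and ITGA10 at -0.10 ± 0.06 (SE). ITGA5, the fibronectin receptor chain, read 8.97, 9.14 and 9.20 in siTIG1 and 8.96, 8.66 and 9.36 in siControl, with overlapping groups. Its difference was 0.11 ± 0.18 (SE), and without siControl replicate 3 it was 0.29 and passed (limma adjusted p = 0.049). ITGA8 and ITGA9 did not pass, at 0.0016 and 0.14.

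Among the other laminin chains LAMB1, the beta1 chain of most laminins outside laminin-332, fell. It read 10.36, 10.50 and 10.45 in siTIG1 and 10.78, 10.84 and 10.88 in siControl, with no overlap. The difference was -0.40 ± 0.06 (SE, limma adjusted p = 0.016), 1.32-fold, and a second probe set gave -0.39 ± 0.08 (SE), with a limma adjusted p of 0.050 in the fit of all probe sets. The call was lost without siControl replicate 2 (limma adjusted p = 0.062) or without any siTIG1 array (0.068 to 0.086).

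The other 7 laminin chains did not pass. LAMC1, the gamma chain found in most laminins, read 11.26, 11.47 and 11.39 in siTIG1 and 11.48, 11.49 and 12.01 in siControl, and its difference was -0.28 ± 0.15 (SE, limma adjusted p = 0.35). Its groups were separated by a narrow margin, and a second probe set had the opposite sign, 0.17. LAMA5, the alpha chain of most adult epithelial basement membranes, read 9.94, 9.79 and 9.65 in siTIG1 and 9.86, 9.92 and 10.41 in siControl, a difference of -0.27 ± 0.16 (SE). LAMB2 read 9.46, 9.54 and 9.32 in siTIG1 and 9.41, 9.45 and 9.91 in siControl, a difference of -0.16 ± 0.14 (SE). In all 3 genes siControl replicate 3 was the highest array, and without it the differences were -0.11, -0.10 and 0.0038. LAMA4, a chain of vascular and mesenchymal laminins, read 9.09, 9.10 and 9.15 in siTIG1 and 9.37, 9.45 and 9.09 in siControl. Its difference of -0.19 ± 0.10 (SE) became -0.29 without that array and passed (limma adjusted p = 0.0032). Of the 5 LAMA4 probe sets 3 were higher and 2 lower in siTIG1, from -0.19 to 0.08. Without siControl replicate 3 the dimmer LAMA4 probe sets lay between -0.06 and 0.09, and none of them passed. LAMA2, of muscle, was at -0.28 ± 0.14 (SE) with groups that did not overlap, and at -0.12 without siControl replicate 3, its highest array. LAMA1 and LAMC3 were at 0.02 and -0.02. A dimmer LAMA1 probe set was at -0.24 with overlapping groups. Without siControl replicate 3 it was at -0.33 and passed in the fit of all probe sets (limma adjusted p = 0.025).

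Both nidogens had higher siTIG1 signals without overlap, and neither passed with all arrays. NID1 read 10.08, 9.90 and 10.004 in siTIG1 and 8.58, 8.75 and 9.60 in siControl. Its difference was 1.02 ± 0.26 (SE, limma adjusted p = 0.074), the largest positive one in the set, and siControl replicate 3 lay 0.93 above the other controls. Without that array it was 1.33 ± 0.07 (SE, limma adjusted p = 3.7e-06). All 3 NID1 probe sets were positive, from 0.07 to 1.02. NID2 read 10.17, 10.61 and 10.49 in siTIG1 and 10.02, 10.12 and 10.03 in siControl. Its difference was 0.37 ± 0.12 (SE, limma adjusted p = 0.12), and it passed without siControl replicate 3 (0.36, limma adjusted p = 0.038) or without siTIG1 replicate 1 (0.50, limma adjusted p = 0.043).

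**Figure D3:**
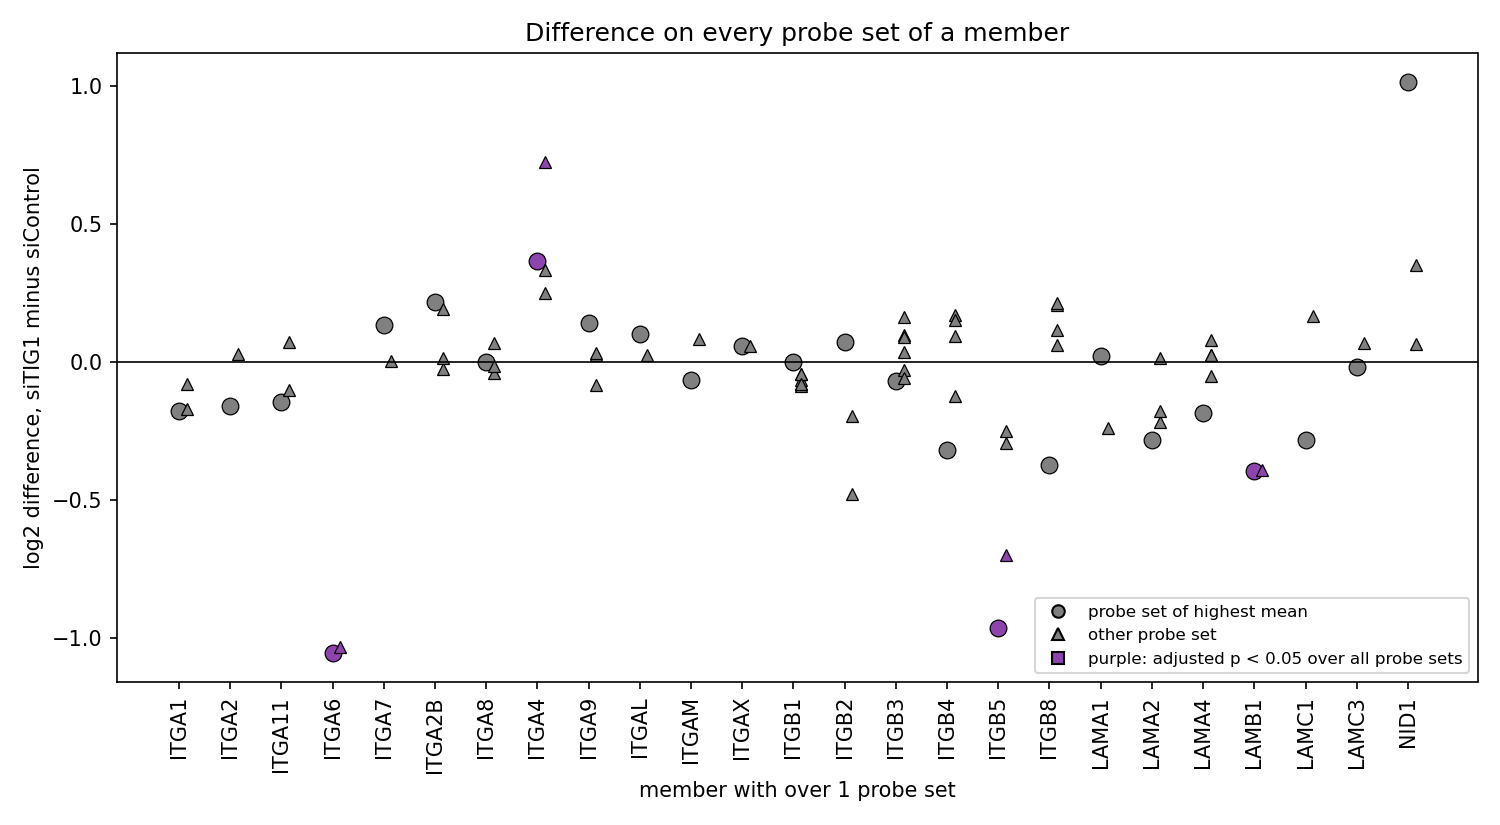
Log2 difference, siTIG1 minus siControl (vertical axis), on every probe set of the 25 genes that had more than 1. Circles are the probe sets of highest mean, triangles the others, and purple marks an adjusted p under 0.05 over all probe sets. ITGA6 and LAMB1 agree closely between probe sets, ITGA4 and ITGB5 agree in sign, and the probe sets of ITGB4 lie on both sides of 0.

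Of the 25 genes with more than 1 probe set, 9 had the same sign on all of them and 16 had both signs. Over all probe sets with 1 symbol, 5.95% passed, and of the 95 probe sets of the set 7 were lower and 3 higher past the threshold. These 10 belonged to LAMB3, ITGA6, ITGB5, LAMB1, ITGAV and ITGA4. Of the 35 genes, 17 had both group means at or under the median gene level, ITGB4, ITGA4 and ITGA2B among them.

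Genes that work with these receptors were read from 4 lists of hemidesmosome and other laminin-binding genes, other basement membrane genes, other integrin ligands, and focal adhesion genes. Of 58 measured genes 2 rose and 8 fell, which is 17.2% against 7.29% of all genes, and their median difference was 0.01 against 0.02. The lists were chosen with earlier results of these data known, so their shares are not independent of the data. Of 6 hemidesmosome and laminin-binding genes 2 fell. PLEC, plectin, which links beta4 to keratin filaments, read 10.56, 10.34 and 10.42 in siTIG1 and 10.99, 10.99 and 11.23 in siControl (-0.63 ± 0.09 SE, limma adjusted p = 0.016). SDC4, the syndecan-4 proteoglycan of focal adhesions, read 11.81, 11.50 and 11.75 in siTIG1 and 12.48, 12.62 and 13.09 in siControl (-1.04 ± 0.17 SE, limma adjusted p = 0.020). SDC1 did not pass, at -0.56 ± 0.13 (SE, limma adjusted p = 0.056), with groups that did not overlap. Without siControl replicate 3 it was -0.41 and passed (limma adjusted p = 0.00034). CD151, the tetraspanin partner of laminin-binding integrins, was at 0.02 and DST, which encodes a hemidesmosome plakin, at 0.11. BCAM was at -0.01.

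Of 14 other basement membrane genes AGRN, the heparan sulfate proteoglycan agrin (-0.40 ± 0.07 SE, limma adjusted p = 0.027), and COL7A1, the anchoring fibril collagen that binds laminin-332 (-0.24 ± 0.05 SE, limma adjusted p = 0.042), fell and none rose. Of 13 other integrin ligands 1 passed, ICAM1, the ligand of beta2 integrins, which rose by 0.48 ± 0.10 (SE, limma adjusted p = 0.038). FN1, fibronectin, did not pass, at 0.90 ± 0.22 (SE, limma adjusted p = 0.064), with groups that did not overlap. Without siControl replicate 3 it was 0.63 and passed (limma adjusted p = 3.45e-05). In that fit 4 of the 13 rose and 1 fell (38.5%, against 27.1% of all genes). Of 25 focal adhesion and integrin activation genes 1 rose and 4 fell. FERMT2, kindlin-2, rose by 0.40 ± 0.08 (SE, limma adjusted p = 0.039), whereas FERMT1, kindlin-1 of epithelia, fell by 0.52 ± 0.10 (SE, limma adjusted p = 0.035). Both kindlins bind integrin beta tails. The other falls were TNS4 (-0.49 ± 0.07 SE), PARVB, beta-parvin (-0.37 ± 0.06 SE), and PXN, paxillin (-0.80 ± 0.17 SE). Without siControl replicate 3, 14 of the 58 rose and 15 fell (50%, against 27.1% of all genes). In the 5 fits that left out another array none of the 58 rose and at most 3 fell. Over all 19775 genes 101 to 250 rose and 116 to 338 fell in those fits.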

How the data were processed

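Expression was measured on 6 Affymetrix HG-U133 Plus arrays. The deposited values are 1 log2 value per probe set and array; the log base was inferred from their range, 4.28 to 15.59. The submitters' processing notes name MAS5 and RMA but do not say what each was used for. Array medians lay between 7.87 and 7.90, so the authors' log2 values were used as deposited; such normalization can hide a shift of most genes. Of 54675 probe sets, 62 were controls, 41091 had 1 symbol, 1801 several and 11721 none listed. Symbols were updated through RefSeq gene numbers (19738 of 19775 genes matched).

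Each gene was read from its probe set of highest mean; x_at probe sets, which may cross-hybridise, were used only for genes with no other, except that for the members the highest mean decided (ITGA8 and ITGB2). The 2-sided test was limma's (version 3.58.1, R 4.3.3), lmFit and eBayes with no blocking term; p-values were adjusted by Benjamini-Hochberg across the 19775 genes, with 0.05 as threshold; the test was checked on simulated data. The number of arrays limits the precision. The members and lists were chosen with earlier results of these data known. Every member was described. Those past the threshold, those whose groups did not overlap and the 6 largest others were named with values. Of each list the genes past the threshold were named, at most 6. CD151, DST, SDC1, BCAM and FN1 were added afterwards with their values known. The alternatives comprised median centring, quantile normalization, leaving out dim genes, other choices of probe set, all probe sets, trended robust eBayes, the replicate block and leaving out each array; avoiding x_at probe sets for members too was chosen after seeing the data.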

Additional observations from a re-analysis of the deposited data

How the results depend on the processing

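LAMB3 and ITGA6 fell past the threshold under all 9 alternatives other than leaving out arrays (LAMB3 -1.54 to -1.52, ITGA6 -1.07 to -1.02), and ITGB4 stayed negative without passing (-0.33 to -0.01, nearest 0 for the average of its probe sets). With 1 array left out, LAMB3 ranged from -1.61 to -1.38, ITGA6 from -1.09 to -1.01 and ITGB4 from -0.41 to -0.19, the last without siControl replicate 3, where it passed. Over those fits the members that rose numbered 0 to 6 and those that fell 3 to 9, the list genes that rose 0 to 14 and that fell 0 to 15, and all genes that rose 101 to 2421 and that fell 116 to 2936. Averaging the probe sets of each gene gave 4 list genes that rose; NID1 then passed at 0.48 (limma adjusted p = 0.044) and ITGB5 was at -0.55. ITGA2B lost its call under 5 alternatives, quantile normalization (0.052) and median centring (0.057) among them. Replicate numbers did not pair the arrays (same-numbered deviations correlated at -0.08, 0.02 and -0.04). With the replicate block 0 members rose and 3 fell (LAMB3, ITGA6 and ITGB5), no list gene rose or fell (0 and 0), and 108 genes rose and 137 fell over all; the cause was not tested. No result past the threshold reversed its sign under these alternatives or with an array left out. Summarised array values carry no background estimate, which limits the dim members.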
